A study of Mus musculus with 24 samples.

Results

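The metallothionein genes Mt1, Mt2 and Mt3 were followed through proteasome inhibition in cultured mouse cortical neurons. They were taken as every probe whose gene symbol was Mt1, Mt2 or Mt3, which gave 1 probe per gene, so 3 of the 18709 gene symbols and 3 of the 24691 probes on the array. RNA came from primary cortical neurons of Swiss albino mouse fetuses at gestation day 15-16, used on day 5 in culture and hybridised to 24 bead arrays (Illumina MouseRef-8), and no transgene or deletion was named for any group. Lactacystin, a compound that blocks the proteasome, was applied in 6 combinations, with 3 arrays for each: a 1 µM dose lasting 5, 8, 15 or 24 h, and a 0.1 µM dose lasting 15 or 24 h. Another 6 arrays came from cultures with no treatment. The inhibitor stock was made in dimethyl sulfoxide, and the labels name neither a vehicle nor a collection time for the untreated cultures, so solvent and time in culture are part of each comparison with them. The comparisons ask when, and at which concentration, the RNA level of each metallothionein rose or fell.

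Metallothioneins are small cysteine-rich proteins that bind zinc and copper and can take up reactive oxygen species. Mt1 and Mt2 are the stress-inducible pair: zinc released in the cell activates the transcription factor MTF-1, which binds metal response elements in their promoters, and glucocorticoids and oxidative stress raise them as well. In brain both are strongest in astrocytes. Mt3, first described as growth inhibitory factor, is the brain-enriched member, is made in neurons and in astrocytes, and responds little to metals.

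The promoters are printed because they show how the members differ in the metal response element, the sequence through which zinc acts on the inducible pair. The RefSeq promoter table (build GRCm38.p6) gave a window for all 3 genes, from 250 bases before to 50 after the annotated start, on the plus strand of chromosome 8 at chr8:94178839-94179138 for Mt1, chr8:94172368-94172667 for Mt2 and chr8:94152357-94152656 for Mt3. Capitals mark each match to the metal response element core, searched as TGCACNC or TGCGCNC on both strands.
Mt1: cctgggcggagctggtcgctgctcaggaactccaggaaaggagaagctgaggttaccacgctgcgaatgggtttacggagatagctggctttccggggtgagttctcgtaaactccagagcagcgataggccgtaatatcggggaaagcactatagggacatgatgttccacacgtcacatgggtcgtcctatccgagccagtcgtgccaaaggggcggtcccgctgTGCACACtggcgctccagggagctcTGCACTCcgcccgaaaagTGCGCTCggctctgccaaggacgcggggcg
Mt2: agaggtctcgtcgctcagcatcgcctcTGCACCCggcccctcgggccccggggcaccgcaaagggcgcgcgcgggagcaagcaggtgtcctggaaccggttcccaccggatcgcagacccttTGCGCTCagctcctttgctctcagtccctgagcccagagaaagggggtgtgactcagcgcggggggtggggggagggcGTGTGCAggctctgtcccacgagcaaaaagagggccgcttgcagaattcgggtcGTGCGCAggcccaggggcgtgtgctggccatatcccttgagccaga
Mt3: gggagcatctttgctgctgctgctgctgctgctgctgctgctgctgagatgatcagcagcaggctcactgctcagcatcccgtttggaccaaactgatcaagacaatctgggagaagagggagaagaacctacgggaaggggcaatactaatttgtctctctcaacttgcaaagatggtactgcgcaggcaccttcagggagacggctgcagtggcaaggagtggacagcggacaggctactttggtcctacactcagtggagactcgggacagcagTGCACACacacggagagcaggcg
The Mt1 window held 3 such matches and the Mt2 window 4, whereas the Mt3 window held 1. The matches in Mt1 began at -23, 3 and 21 counted from the annotated start, those in Mt2 at -223, -128, -50 and 5, and the one in Mt3 at 28. Of 27025 promoter windows of the same length, 25.5% held at least 1 match, 1.32% at least 3 and 0.278% at least 4, so a single match as in Mt3 is common and the numbers in Mt1 and Mt2 are not. The antioxidant response element, searched as TGACNNNGC, had 1 match in Mt2, at -79, and none in the other two windows (12.4% of all windows held it). Neither the heat shock element GAANNTTC (7.97% of all windows) nor the full glucocorticoid response element (0 of all windows) was matched in the 3 members. Only these windows, set by the annotated starts, were searched, so an element outside them would be missed. A match is a string of letters, and binding was not measured.

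All 3 probes were detected on 24 of 24 arrays. The arrays had median signals of 52.2 to 81.0 intensity units. Mt1 gave 3658.3 to 14120.1 units, Mt2 144.7 to 619.9 and Mt3 436.3 to 2762.6, and since probes differ in how strongly they bind, these levels are compared between arrays and not between genes. The number of beads behind each signal was 24 to 47 for Mt1, 22 to 46 for Mt2 and 36 to 60 for Mt3. The standard error between beads was at most 4.61%, 6.44% and 4.15% of the signal for Mt1, Mt2 and Mt3, smaller than the spread between untreated arrays. The transcripts of Mt1 and Mt2 are similar in sequence, and binding of one by the other's probe was not tested. The neighbouring family member Mt4 was detected on 4 of 24 arrays, at 50.1 to 71.7 units. Changes are log2 differences ± SE from limma on background-corrected, quantile-normalized signal, with p-values adjusted by Benjamini-Hochberg over 10903 genes, and a gene was called at an adjusted p under 0.05. The arrays of a group are not said to come from separate cultures, so a p-value here reflects the spread among the arrays, which may be technical, and their number limits the precision. The model shared 1 estimate of spread over the 7 groups, although the untreated arrays varied most. Their normalized log2 SD was 0.47 for Mt2 and 0.55 for Mt3, against at most 0.20 and 0.16 in the treated groups. The SE may thus be too small against untreated cultures and too large between treated groups.

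The results of Mt1 turned on concentration and time. At 1 µM its RNA fell to its lowest level at 8 h and its deposited signal was back within the untreated range at 24 h, whereas at 0.1 µM it rose at 15 h. Untreated arrays gave signals from 6997.4 to 13201.1 with a median of 10603.45 (10478 ± 2192, mean ± SD, n = 6). At 1 µM the 3 arrays gave 7177.1, 8935.2 and 5581.8 at 5 h and 3811.4, 5088.8 and 3658.3 at 8 h. They gave 4704.7, 5240.5 and 5131.1 at 15 h, and 7469.5, 8114.8 and 7331.5 at 24 h. The arrays at 8 and 15 h lay below every untreated array and those at 24 h did not. At 0.1 µM the signals were 14120.1, 13826.4 and 13712.9 at 15 h, above every untreated array, and 7662.1, 9928.6 and 8255.1 at 24 h, within the untreated range. These positions depended on scaling. In the authors' ratios, replicate 1 at 15 h of 0.1 µM (1.352) lay below untreated replicate 2 (1.364). There, replicate 1 at 24 h of 1 µM (0.690) lay below the lowest untreated array (0.741).

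At 5 h of 1 µM, Mt1 was 1.38-fold lower than in untreated cultures (-0.47 ± 0.12, limma adjusted p = 0.015). On the normalized scale the 5 h arrays (12.66 to 12.82) did not overlap the untreated ones (12.91 to 13.68), although the deposited signals did. It was 2.51-fold lower at 8 h (-1.33 ± 0.12, limma adjusted p = 2.03e-08) and 1.78-fold lower at 15 h (-0.83 ± 0.12, limma adjusted p = 3.64e-06). At 24 h the change of -0.21 ± 0.12 did not pass (limma adjusted p = 0.14), but Mt1 was called lower there with array-wise median centring (-0.45, adjusted p = 0.0097) and in the authors' ratio table (-0.41, adjusted p = 0.00878). The course at 1 µM turned between 8 and 15 h: Mt1 fell from 5 to 8 h (-0.86 ± 0.14, limma adjusted p = 2.44e-04), then rose from 8 to 15 h (0.49 ± 0.14, limma adjusted p = 0.00842) and again from 15 to 24 h (0.62 ± 0.14, limma adjusted p = 0.00476). Within the 3 slides, each array set against the 2 untreated arrays beside it, the change at 8 h was -1.56, -1.14 and -1.28 and that at 15 h -1.05, -0.58 and -0.87. The call at 5 h was lost with array-wise median centring (-0.41, adjusted p = 0.0839), in a fit of only the groups compared (adjusted p = 0.173) and without 5 h replicate 1 (adjusted p = 0.0517) or replicate 3 (adjusted p = 0.0915). The rises from 8 to 15 h and from 15 to 24 h did not pass with median centring (adjusted p = 0.137 and 0.0545), and the first did not in the authors' ratio table either (adjusted p = 0.0652).

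At 0.1 µM, Mt1 was 1.55-fold higher at 15 h (0.63 ± 0.12, limma adjusted p = 8.63e-04), by 0.40, 0.86 and 0.63 within the slides. By 24 h it was lower than at 15 h (-0.56 ± 0.14, limma adjusted p = 0.00966, and 0.0573 without 24 h replicate 1), and against untreated cultures its change of 0.07 ± 0.12 did not pass (limma adjusted p = 0.801). At 15 h the doses stood 2.76-fold apart, with 1 µM lower (-1.46 ± 0.14, limma adjusted p = 1.34e-08). At 24 h the difference between doses was -0.28 ± 0.14 (limma adjusted p = 0.0965, 95% interval -0.56 to 0.01). The change of that difference from 15 to 24 h was 1.19 ± 0.19 (limma adjusted p = 2.81e-04).

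**Figure D1:**
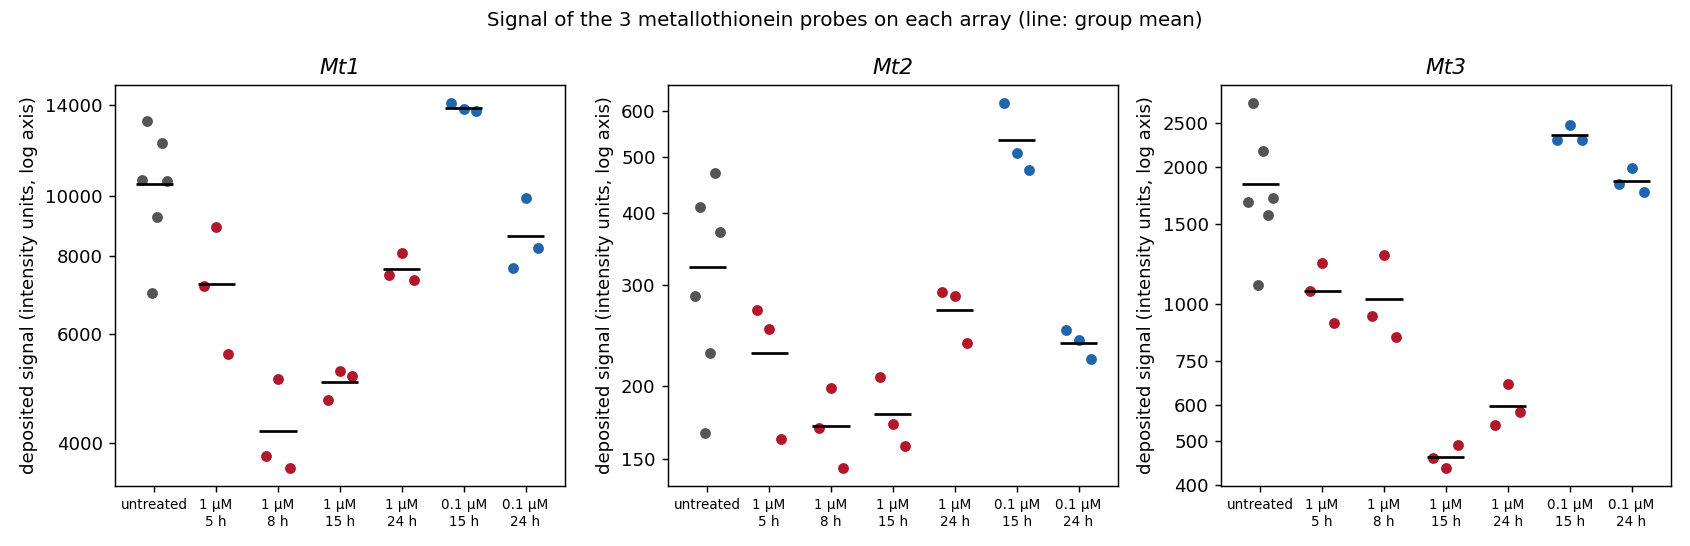
Deposited signal of Mt1, Mt2 and Mt3 (intensity units, log axis with a separate range for each gene) on each of the 24 arrays by group, points for arrays and lines for group means, with untreated arrays in grey, 1 µM lactacystin in red and 0.1 µM in blue. Mt1 and Mt2 have their lowest array at 8 h of 1 µM and Mt3 its lowest at 15 h, and the 15 h arrays of 0.1 µM lie above every untreated array for Mt1 and Mt2 but not for Mt3.

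Mt2, the partner of Mt1 in metal and stress responses, was lower at 8 and 15 h of 1 µM and higher at 15 h of 0.1 µM. Its untreated arrays ranged from 166.4 to 469.5 with a median of 329.0. At 1 µM the arrays gave 271.5, 251.2 and 162.3 at 5 h, and 169.3, 198.7 and 144.7 at 8 h. At 15 h they gave 207.4, 172.4 and 158.0, and at 24 h 291.2, 286.8 and 237.7. Every 1 µM group overlapped the untreated arrays in deposited signal. After normalization the 8 h arrays (6.92 to 6.99) lay below all untreated arrays (7.19 to 8.57), while those of 5, 15 and 24 h overlapped them. At 0.1 µM the 15 h arrays gave 619.9, 508.1 and 474.1, all above the untreated arrays, and the 24 h arrays gave 250.2, 240.4 and 223.4, inside their range.

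Mt2 was 1.98-fold lower at 8 h of 1 µM (-0.98 ± 0.18, limma adjusted p = 1.92e-04) and 1.57-fold lower at 15 h (-0.65 ± 0.18, limma adjusted p = 0.00458). It did not pass at 5 h (-0.28 ± 0.18, limma adjusted p = 0.357) or 24 h (-0.03 ± 0.18, limma adjusted p = 0.891, 95% interval -0.41 to 0.35). From 5 to 8 h it fell by 0.70 ± 0.21 (limma adjusted p = 0.0245), a call lost without any single 5 or 8 h array except 5 h replicate 3 (adjusted p up to 0.107). It was also lost with median centring (-0.58, adjusted p = 0.137) and in the authors' ratio table (-0.50, adjusted p = 0.0921). From 8 to 15 h the change was 0.34 ± 0.21 (limma adjusted p = 0.237). From 15 to 24 h it was 0.61 ± 0.21, which missed the threshold (limma adjusted p = 0.061) and passed it with the replicate number, a shared slide, as a block (adjusted p = 0.038). Within the slides the change was -1.31, -0.47 and -1.18 at 8 h and -0.99, -0.27 and -0.68 at 15 h.

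The rise of Mt2 at 15 h of 0.1 µM was 2.21-fold (1.14 ± 0.18, limma adjusted p = 1.73e-04), and 0.78, 1.60 and 1.05 within the slides. It had fallen again by 24 h (-1.12 ± 0.21 against 15 h, limma adjusted p = 0.00138), when its difference from untreated cultures was 0.02 ± 0.18 (limma adjusted p = 0.964). Mt2 was 3.47-fold lower at 1 µM than at 0.1 µM at 15 h (-1.79 ± 0.21, limma adjusted p = 3.38e-07), and at 24 h the difference between doses was -0.06 ± 0.21 (limma adjusted p = 0.848, 95% interval -0.49 to 0.38). The change between these differences was 1.74 ± 0.30 (limma adjusted p = 4.59e-04).

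Mt3, the brain-enriched member, was called lower at 8, 15 and 24 h of 1 µM, with its lowest point at 15 h. Its untreated arrays ranged from 1100.9 to 2762.6 with a median of 1694.3. At 1 µM the signals were 1067.4, 1231.9 and 908.7 at 5 h, and 942.3, 1283.1 and 846.4 at 8 h. They were 458.0, 436.3 and 489.8 at 15 h and 542.3, 667.7 and 577.0 at 24 h. The arrays at 15 and 24 h lay below every untreated array, while those at 5 and 8 h overlapped them in deposited signal. After normalization the 8 h arrays (9.70 to 9.80) lay below the untreated ones (9.95 to 11.38) as well. At 0.1 µM the arrays gave 2293.0, 2469.4 and 2289.5 at 15 h and 1834.7, 1991.8 and 1764.9 at 24 h, all within the untreated range.

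Mt3 was 3.60-fold lower at 15 h of 1 µM (-1.85 ± 0.20, limma adjusted p = 1.01e-07) and 2.75-fold lower at 24 h (-1.46 ± 0.20, limma adjusted p = 2.58e-06). At 8 h it was 1.86-fold lower (-0.90 ± 0.20, limma adjusted p = 0.00134). The change of -0.60 ± 0.20 at 5 h did not pass (limma adjusted p = 0.0667), and passed with the scanner slide as a block (adjusted p = 0.0423), without untreated replicate 3 (adjusted p = 0.0402) or 5 (adjusted p = 0.00775), and in 4 further settings listed with the alternatives. Mt3 fell from 8 to 15 h (-0.95 ± 0.24, limma adjusted p = 0.00365), the interval over which Mt1 rose. From 15 to 24 h its change was 0.39 ± 0.24 (limma adjusted p = 0.32). Within the slides Mt3 changed by -2.26, -1.74 and -1.54 at 15 h and by -1.63, -1.51 and -1.24 at 24 h.

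Mt3 was 1.60-fold higher at 15 h of 0.1 µM (0.68 ± 0.20, limma adjusted p = 0.0262; 0.40, 0.70 and 0.94 within the slides). This call rested on the full set of arrays: it was lost without any one of the 15 h arrays (adjusted p = 0.0547, 0.0891 and 0.0927 without replicates 1, 2 and 3), without untreated replicate 3 (0.0527), in a fit of only the groups compared (0.192) and with median centring (0.0766). At 24 h of 0.1 µM the change of 0.51 ± 0.20 did not pass (limma adjusted p = 0.168), but passed without untreated replicate 2 (0.66, adjusted p = 0.0339) or 4 (0.62, adjusted p = 0.0491). Between the doses Mt3 was 5.77-fold lower at 1 µM at 15 h (-2.53 ± 0.24, limma adjusted p = 1.24e-08) and 3.91-fold lower at 24 h (-1.97 ± 0.24, limma adjusted p = 3.67e-07). The change of this difference from 15 to 24 h was 0.56 ± 0.33 (limma adjusted p = 0.278, 95% interval -0.13 to 1.25).

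These counts stand against a wide response. At 5 h of 1 µM 1 of the 3 members, Mt1, was called lower, where 4.07% of all genes tested were lower and 6.18% higher. At 8 h all 3 were called lower (19.8% of genes were lower and 20.1% higher) and so they were at 15 h (27.7% lower and 27.2% higher). At 24 h Mt3 was called lower (30.6% lower and 26.7% higher), and Mt1 as well with median centring or the authors' ratios (-0.45 and -0.41). At 15 h of 0.1 µM all 3 were called higher (8.53% of genes were higher and 8.01% lower), and at 24 h none was called (0.697% higher and 1.54% lower). The split of calls depended on the scaling: centring each array on its median gave 2.56% higher and 3.57% lower at 5 h of 1 µM, 20.7% and 13.2% at 8 h and 18.7% and 34.5% at 24 h. With 0.1 µM it gave 4.97% higher and 13.7% lower at 15 h and 0.651% and 19.6% at 24 h. For Mt1, 0.303% of all genes fell at least as far at 8 h of 1 µM. For Mt3 the share was 0.715% at 15 h of 1 µM, and 0.862% of genes rose at least as far as Mt2 at 15 h of 0.1 µM. These were the smallest shares of each member against untreated cultures, and other called changes were less extreme. At 15 h of 1 µM 8.84% of genes fell at least as far as Mt1 and 13.8% as far as Mt2. At 15 h of 0.1 µM 3.65% rose at least as far as Mt1 and 3.18% as far as Mt3. Between doses at 15 h all 3 members were called lower at 1 µM (25.4% of genes), and at 24 h only Mt3 was (27%). The change of the dose difference between 15 and 24 h was called for Mt1 and Mt2, in the positive direction, as for 9.14% of genes. Between neighbouring times, 8.33% of genes were called lower at 8 than at 5 h of 1 µM, with Mt1 and Mt2 among them. From 8 to 15 h 15.2% were called higher, among them Mt1, and 17.8% lower, among them Mt3. From 15 to 24 h of 1 µM 5.59% were called higher, among them Mt1, and at 0.1 µM 7.16% were called lower, among them Mt1 and Mt2. Median centring gave 2.98% lower from 5 to 8 h, 7.5% higher and 21.6% lower from 8 to 15 h, 3.03% higher from 15 to 24 h of 1 µM and 6.14% lower at 0.1 µM.

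**Figure D2:**
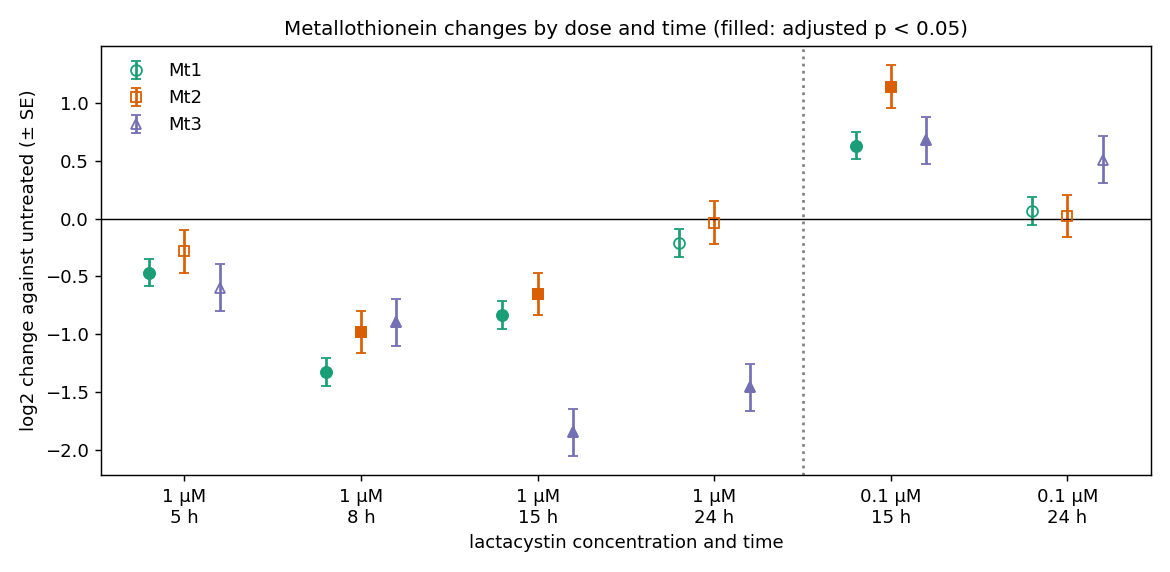
Log2 change against the 6 untreated arrays (points, ± SE from limma, 3 treated arrays each) of Mt1, Mt2 and Mt3 for the 6 lactacystin groups, with 1 µM left and 0.1 µM right of the dotted line and filled symbols for an adjusted p under 0.05. Mt1 and Mt2 reach their lowest point at 8 h of 1 µM (-1.33 and -0.98) and Mt3 its lowest at 15 h (-1.85), and all 3 are above 0 at 15 h of 0.1 µM.

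Ordered by group mean, Mt1 and Mt2 followed one sequence from low to high: 8 h, 15 h, 5 h and 24 h of 1 µM, untreated, then 24 h and 15 h of 0.1 µM. For Mt1 the 24 h group of 1 µM, the untreated arrays and the 24 h group of 0.1 µM overlapped with their neighbours on the normalized scale, and the other neighbours did not. For Mt2 the overlap reached from 5 h of 1 µM through 24 h of 0.1 µM. Mt3 began at 15 h of 1 µM, followed by 24 h, 8 h and 5 h of that dose, untreated, and 24 h and 15 h of 0.1 µM. In this sequence the untreated arrays overlapped the groups on both sides, and no other neighbours overlapped.

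Whether the members changed by unequal amounts was asked on each array, as the difference between the normalized log2 values of a pair, which shows unequal change and not which gene moved. At 15 h of 1 µM Mt1 minus Mt3 was 1.01 above its untreated mean and Mt2 minus Mt3 was 1.20 above it. At 24 h these shifts were 1.25 and 1.43. In all 4 cases the treated arrays lay outside the untreated range. Mt1 minus Mt2 at 15 h of 0.1 µM was 0.51 below its untreated mean (-0.51), again outside the range. Each of these 5 gave p = 0.0238 in a two-sided exact permutation test of 3 against 6 arrays, the smallest p that its 84 arrangements allow. After adjustment over the 18 tests of the pairs the value was 0.0857, so 0 of 18 passed. Since no smaller p was possible, none could pass unless more of the 18 had reached that smallest p. The adjusted values therefore cannot show that the members changed equally. The other 13 tests had overlapping ranges, with differences from -0.49 to 0.46. Removing normalization, centring arrays on their median or using the authors' ratios turned the sign of 1 of the 18, Mt1 minus Mt3 at 15 h of 0.1 µM (-0.05). A scale factor of the array cancels in such differences. These settings are therefore not independent checks, and differ from each other only in the background correction.

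**Figure D3:**
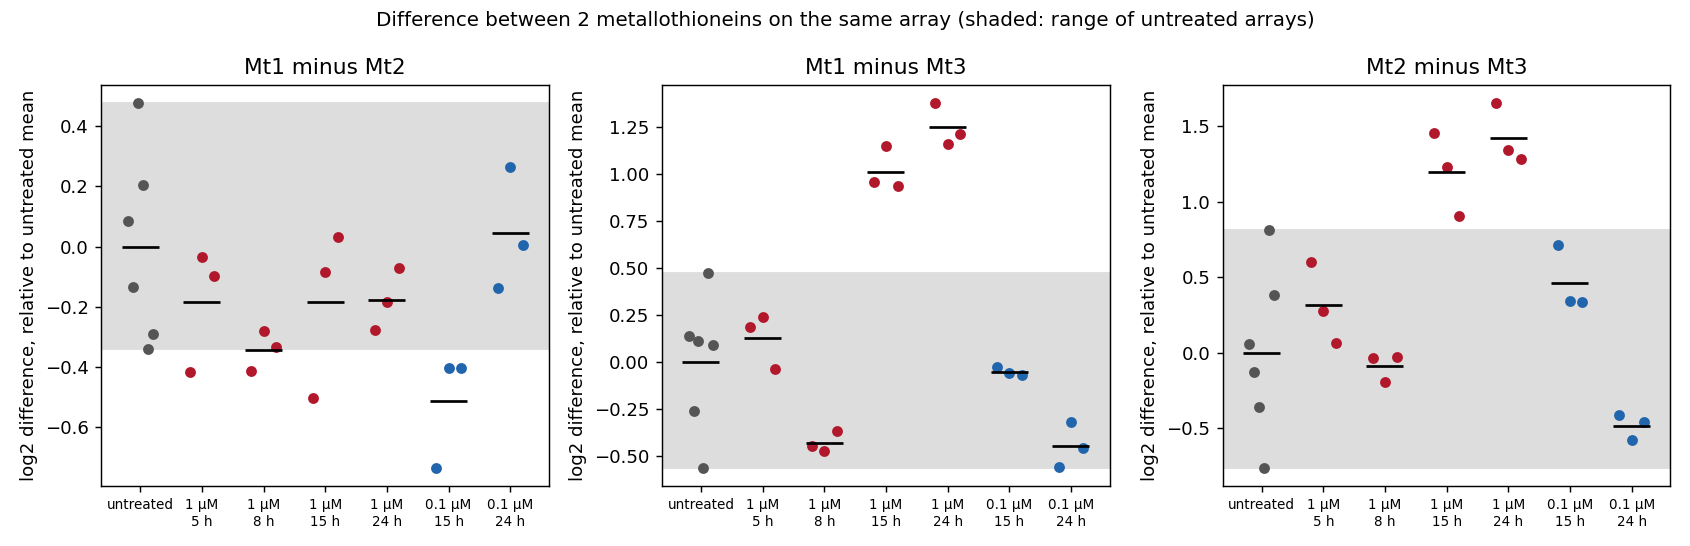
Difference between the normalized log2 values of a pair of metallothioneins on the same array, relative to the mean of the untreated arrays (points for arrays, lines for group means, shading for the range of the 6 untreated arrays). Mt1 minus Mt3 and Mt2 minus Mt3 lie above the untreated range on all 15 and 24 h arrays of 1 µM, with mean shifts from 1.01 to 1.43, and Mt1 minus Mt2 lies below it at 15 h of 0.1 µM.

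The genes whose profiles over the 24 arrays were most like each member are given as a description, since the arrays share groups and slides. For Mt1 they were Cd9, a tetraspanin of the cell surface (Pearson r = 0.96), Mrpl11, a mitochondrial ribosomal protein (0.95), the adenylate kinase Ak1 (0.94), Aard (0.94) and Fkbp9 (0.93). For Mt2 they were the peripheral myelin protein Pmp22 (0.91), Mt1 (0.91), the mitochondrial fatty acid enzyme Cpt2 (0.90), the peroxiredoxin Prdx6 (0.90) and Aard (0.90). For Mt3 they were the interleukin 11 receptor gene Il11ra1 (0.98), B9d1 (0.97), the lipogenic regulator Thrsp (0.97), the fatty acid oxidation enzyme Acaa2 (0.97) and the glutathione transferase Gstt3 (0.97). Between the members r was 0.91 for Mt1 and Mt2, 0.73 for Mt1 and Mt3 and 0.65 for Mt2 and Mt3. Among all genes ordered by likeness to Mt1, Mt2 held place 17 and Mt3 place 393. In the order for Mt3, Mt1 held place 1409 and Mt2 place 1948, so many other genes were more alike. Cd9 was at -0.96 at 8 h of 1 µM and 0.43 at 15 h of 0.1 µM, and Il11ra1 at -1.78 at 15 h of 1 µM, -1.67 at 24 h and 0.89 at 15 h of 0.1 µM.

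Genes of the zinc transporters, which move zinc across membranes, and of the metal-sensing factor Mtf1 had calls in both directions at 1 µM. Of 23 listed genes 15 were tested. At 8 h of 1 µM, when Mt1 and Mt2 were lowest, 4 were called higher and 3 lower (4 and 1 with median centring). At 15 h 7 were higher and 1 lower, and at 24 h 8 and 2. Of all genes 20.1% were higher and 19.8% lower at 8 h, 27.2% and 27.7% at 15 h and 26.7% and 30.6% at 24 h. Mtf1, whose product switches on Mt1 and Mt2 when zinc rises, was higher at 15 h (0.57 ± 0.11) and 24 h (0.56 ± 0.11) and did not pass at 8 h (0.24, limma adjusted p = 0.0741). Slc30a1, the zinc exporter gene that MTF-1 also induces, was called in none of the 6 treated groups, with changes from -0.29 to 0.31. Slc39a4, an importer of zinc, rose by 1.40 ± 0.14 at 24 h of 1 µM and by 0.79 ± 0.14 at 15 h of 0.1 µM, the only zinc gene called in that group (1 higher and 1 lower with median centring). Of all genes 8.53% were higher there and 8.01% lower. Among others at 1 µM, Slc39a9 rose at 8 h (0.72 ± 0.15) and 24 h (0.78 ± 0.15), Slc30a4, which loads vesicles with zinc, at 15 h (0.60 ± 0.11), and Slc39a10 fell at 5 h (-0.74 ± 0.23) and 24 h (-0.82 ± 0.23). The list median lay between -0.02 and 0.24 in the 6 treated groups, and that of all genes between -0.05 and -0.0039.

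Of 12 listed genes of copper handling 8 were tested. At 8 h of 1 µM 3 were lower and none higher, at 15 h 2 were higher and 3 lower, and at 24 h 3 and 4. Of all genes 20.1% were higher and 19.8% lower at 8 h, 27.2% and 27.7% at 15 h and 26.7% and 30.6% at 24 h. The copper chaperone gene Atox1 fell by 1.01 ± 0.09 at 15 h, and the copper pump gene Atp7a rose by 1.00 ± 0.12 at 24 h. With 0.1 µM 3 were higher and 1 lower at 15 h, where 8.53% of all genes were higher and 8.01% lower. Sod1, the copper and zinc superoxide dismutase, rose there (0.64 ± 0.08) and at 24 h (0.41 ± 0.08), where it was the only copper gene called. Under median centring and in the authors' ratio table this list had 1 higher and 2 lower at 15 h of 0.1 µM and none higher and 2 lower at 24 h, so the 24 h call of Sod1 was lost. Of 15 listed glucocorticoid targets 14 were tested, and 6 were higher and 4 lower at 15 h of 1 µM. At 8 h 5 were higher and 3 lower and at 24 h 7 and 4 (4 and 5 with median centring). Set against all genes, of which 27.2% were higher and 27.7% lower at 15 h and 20.1% and 19.8% at 8 h, the counts lower in this list are near the background. The counts higher, 6 and 5 of 14, lie above these shares, and that difference was not tested. The phosphatase gene Dusp1 rose at every time of 1 µM, from 0.63 ± 0.08 at 5 h to 1.43 ± 0.08 at 24 h, while Fkbp5, a chaperone of the glucocorticoid receptor, fell at 15 h of 1 µM (-0.60 ± 0.10) and of 0.1 µM (-0.58 ± 0.10). A single target was higher at 15 h of 0.1 µM, Gjb6 (0.39 ± 0.12), which is also on the astrocyte list, and 3 were lower (none and 3 in the authors' ratio table).

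**Figure D4:**
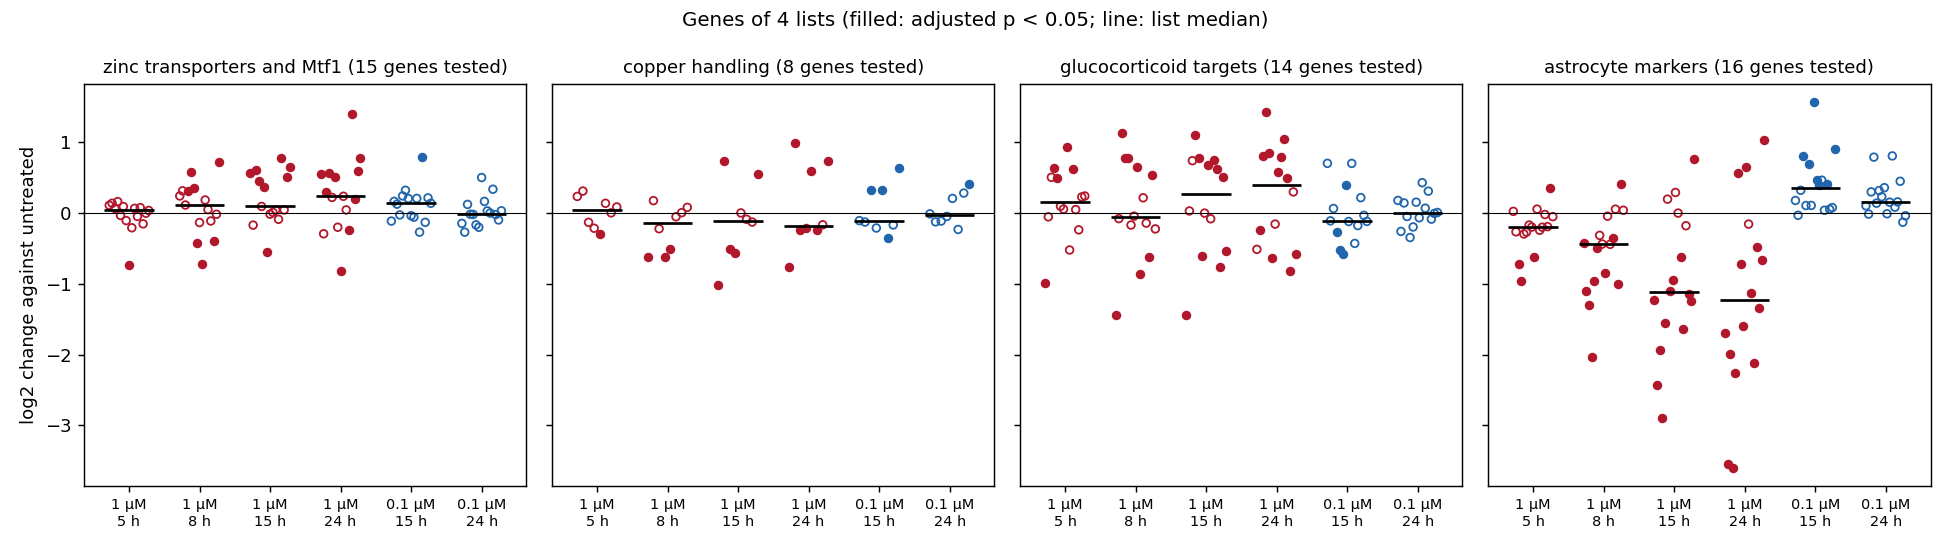
Log2 change against the untreated arrays of each tested gene in 4 lists (points, filled for an adjusted p under 0.05, line for the list median) in the 6 lactacystin groups, with 1 µM in red and 0.1 µM in blue. Astrocyte markers have medians of -1.12 and -1.23 at 15 and 24 h of 1 µM and of 0.36 at 15 h of 0.1 µM, and the other 3 lists have called genes on both sides of 0 at 8, 15 and 24 h of 1 µM or, for copper handling at 8 h, below 0 only.

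Astrocytes are a main source of metallothionein in brain. Their markers were present in these cultures and moved in some of the same groups, but not always together with Mt1 and Mt2. Of 18 listed astrocyte markers 16 were tested, without Slc1a2 and S100b. At 1 µM 3 were lower and 1 higher at 5 h, 9 and 1 at 8 h, 11 and 1 at 15 h and 12 and 3 at 24 h. Of all genes tested 4.07% were lower and 6.18% higher at 5 h and 19.8% and 20.1% at 8 h. The shares were 27.7% and 27.2% at 15 h and 30.6% and 26.7% at 24 h. With 0.1 µM 7 were higher and none lower at 15 h (4 higher with median centring or in the authors' ratio table), and at 24 h none was called (1 lower with median centring, 1 higher and 1 lower in the ratio table). Of all genes 8.53% were higher and 8.01% lower at 15 h of 0.1 µM, and 0.697% and 1.54% at 24 h. The water channel gene Aqp4 was at -2.89 ± 0.24 at 15 h of 1 µM and the aldolase gene Aldoc at -2.42 ± 0.11. The markers called higher at 1 µM were Sox9 at 5 and 8 h (0.36 and 0.41) and Vim at 15 and 24 h (0.77 and 1.03). At 24 h Gja1 (0.66) and Clu (0.57) were called higher as well. Gfap, the astrocyte filament gene, was at -0.95 ± 0.35 at 15 h of 1 µM and at 1.57 ± 0.35 at 15 h of 0.1 µM. The glutamate transporter gene Slc1a3 was not called at 15 h of 1 µM (-0.18, limma adjusted p = 0.194), and rose at 15 h of 0.1 µM (0.41 ± 0.11). Averaged over the 16 markers, the untreated arrays lay at 9.20 to 9.79 log2 units, the 8 h arrays of 1 µM at 8.76 to 8.89, those of 15 h at 8.37 to 8.47 and those of 24 h at 8.11 to 8.27. The 15 h arrays of 0.1 µM lay at 9.72 to 9.91. At 24 h of 1 µM the normalized values of Mt1 and Mt2 overlapped the untreated ones, and those of Mt3 lay below them. Mt1 was called lower there with median centring (-0.45) and in the authors' ratio table (-0.41). From 8 to 15 h of 1 µM the median change of the tested astrocyte markers was -0.55, where Mt1 changed by 0.49 and Mt3 by -0.95. In such bulk RNA fewer cells of a type and less RNA per cell cannot be told apart, and the part of astrocyte RNA in the metallothionein changes was not tested.

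Markers of other cells moved as well. Of all genes 20.1% were higher and 19.8% lower at 8 h of 1 µM, 27.2% and 27.7% at 15 h, and 26.7% and 30.6% at 24 h. At 0.1 µM the shares were 8.53% and 8.01% at 15 h and 0.697% and 1.54% at 24 h. With median centring 13.2% were lower at 8 h of 1 µM, and 13.7% and 19.6% at 15 and 24 h of 0.1 µM. Of 13 tested neuron markers 5 were lower at 8 h of 1 µM (2 with median centring), 8 were lower and 2 higher at 15 h and 9 and 2 at 24 h. At 15 h the vesicular glutamate transporter gene Slc17a7 fell furthest among them (-1.51 ± 0.20). The 2 higher at 15 h were Nefm (0.79 ± 0.15) and Elavl4 (0.35 ± 0.14), and Snap25 and Map2 were among those not called. With 0.1 µM 2 were higher and 3 lower at 15 h (1 and 5 with median centring). At 24 h the neurofilament gene Nefm was called (0.83 ± 0.15) and no other, whereas 1 was higher and 3 lower with median centring and in the authors' ratio table. Of 10 tested oligodendrocyte lineage markers 6 were lower at 8 h of 1 µM, 7 at 15 h and 8 at 24 h, with none higher. Sox10 was at -4.43 ± 0.09 at 15 h. With 0.1 µM 2 were lower at 15 h and 1 at 24 h, Gpr17 (-0.93 ± 0.16), against 5 at each time with median centring or the authors' ratios. Of 10 listed microglia markers 5 were tested, and at 15 h of 1 µM 2 were higher, Cd68 (1.42 ± 0.28) and Cx3cr1 (0.98 ± 0.13), and 2 lower. Of 11 vascular and fibroblast markers 3 were tested, among them Dcn and Pdgfrb. Dcn, a matrix proteoglycan gene, was lower at 15 and 24 h of 1 µM (-1.12 and -1.07, ± 0.25) and at 15 and 24 h of 0.1 µM (-1.34 and -1.17, ± 0.25). Its difference between the doses at 15 h did not pass (0.23 ± 0.29, limma adjusted p = 0.544). Pdgfrb, a receptor gene of pericytes, was lower at every time of 1 µM, from -0.38 ± 0.09 at 5 h to -0.98 ± 0.09 at 15 h, and was not called at 0.1 µM (0.03 and 0.09). The part of these cells in the metallothionein changes was not tested.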

How the data were processed

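Per the labels' protocols, biotin-labelled RNA was hybridised to 24 arrays on 3 slides of 8 (each with 2 untreated arrays and 1 of every treated group). Each group's slide position was fixed, and its effect cannot be told apart from treatment. The authors deposited non-normalized signals (intensity units, background step not given in the sources used here) for 24691 probes, 24613 of them with values. Per the file headers, BeadStudio 3.2.6 made the scanner table without normalization, with a detection score as a fraction. The authors' normalized table holds a linear ratio (signal over array median and control mean, recomputed within 1.87e-05) and served as an alternative.

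Under treated labels the deposited values match scanner columns of the same group on another slide (replicates 1, 2 and 3 hold arrays 3, 1 and 2, with 99.9% of 14487 genes equal within 1e-06). Groups are unaffected, and slides are those of the matching column. Same-numbered treated arrays share a slide by the labels. Their deviations from group means correlated at -0.059 to 0.44 (median 0.314, 45 pairs), against -0.418 to 0.157 for other numbers.

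From the deposited intensities, log2 values were computed in R 4.3.3 with limma 3.58.1: nec background correction with offset 16, quantile normalization, probes detected at 0.01 on at least 3 arrays (13523), and the brightest probe per gene (10903 genes). A model of 7 group means (17 residual degrees of freedom, 4.27 prior) and 13 contrasts were tested with eBayes and Benjamini-Hochberg adjustment per contrast, on simulated data first. Differences between members used exact permutation tests (scipy 1.17.1). The members, the lists (general knowledge), and the naming rule were chosen with earlier results of these data known. Named were the members, up to 4 called genes with the largest change per zinc, copper or glucocorticoid list and contrast, a few of them described, the 5 genes most like each member, and leading cell type markers. Of the probes, 20514 were matched to current symbols by accession. Alternatives changed the background correction, offset (50), scaling, probe filter, probes per gene, groups fitted, slide block, array weights, variance model and source table, and left out arrays in turn.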

Additional observations from a re-analysis of the deposited data

Results flagged for a closer look

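The effect of dose differed between times for Mt1 and Mt2. The difference between 1 µM and 0.1 µM changed from 15 to 24 h by 1.19 ± 0.19 for Mt1 (limma adjusted p = 2.81e-04) and by 1.74 ± 0.30 for Mt2 (limma adjusted p = 4.59e-04). For both the change combined a rise between the times at 1 µM (0.62 and 0.61, of which only that of Mt1 was called) with a fall at 0.1 µM (-0.56 and -1.12). Mt3 showed a change of 0.56 ± 0.33 that did not pass (limma adjusted p = 0.278), and passed in the fit of only these groups and with array weights. No metallothionein had an outlying array among the 6 untreated ones by Dixon's criterion, but the highest Mt1 array came near it (0.606 of the range against a critical 0.625). That array, untreated replicate 2, was also the highest untreated one for Mt2 and Mt3 after normalization.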

How the results depend on the processing

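Of 39 changes of the members over 13 contrasts, 19 kept their direction and side of the threshold under every alternative, 18 of them called. Leaving out 1 array at a time gave 936 values, of which 909 kept both, 12 lost the call, 8 gained it and 7 turned sign. The 546 values of the other settings gave 509, 10, 19 and 8. The cause of these moves was not tested.

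With median centring Mt1 at 5 h of 1 µM was -0.41, at 24 h of 1 µM -0.45 (now called) and at 24 h of 0.1 µM -0.12, its rise from 8 to 15 h 0.33 and from 15 to 24 h 0.50. Mt2 was -0.22 at 24 h of 0.1 µM, 0.0315 between doses at 24 h and -0.58 from 5 to 8 h, and Mt3 0.48 at 15 h of 0.1 µM. Median centring moved the median of all genes to -0.15 at 24 h of 1 µM, -0.14 and -0.20 at 15 and 24 h of 0.1 µM and -0.11 from 8 to 15 h. The authors' ratios (all-gene median -0.13 at 24 h of 0.1 µM) gave -0.41 for Mt1 at 24 h of 1 µM (now called), -0.0609 and -0.15 for Mt1 and Mt2 at 24 h of 0.1 µM, 0.0059 for Mt2 between doses at 24 h, -0.50 for Mt2 from 5 to 8 h, 0.36 for Mt1 from 8 to 15 h and -0.61 for Mt3 at 5 h (now called).

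In the fit of only the groups compared the calls of Mt1 at 5 h (-0.47) and Mt3 at 15 h of 0.1 µM (0.68) were lost. That fit called Mt3 from 5 to 8 h (-0.30), Mt2 from 8 to 15 h (0.34) and 15 to 24 h (0.61), and the Mt3 dose by time change (0.56). Array weights called Mt3 at 5 h (-0.65), Mt1 between doses at 24 h (-0.32), Mt2 and Mt3 from 15 to 24 h (0.64 and 0.47) and the Mt3 dose by time change (0.64), and put Mt2 at 24 h of 1 µM at 0.0371. Mt2 from 15 to 24 h was also called with cyclic loess (0.68), and with the replicate block or the scanner slide as a block (0.61 in both). The scanner slide block and the variance trend called Mt3 at 5 h (-0.60 in both). The replicate block changed no other call. Without untreated replicates 5 and 6 together Mt3 was -0.79 at 5 h (called) and 0.49 at 15 h of 0.1 µM (not called), Mt2 0.0723 at 24 h of 1 µM and 0.61 from 15 to 24 h (called).

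Without 1 array at a time, Mt1 ranged from -0.52 to -0.37 at 5 h of 1 µM, from -0.0159 to 0.16 at 24 h of 0.1 µM, from -0.35 to -0.19 between doses at 24 h and from -0.65 to -0.49 from 15 to 24 h of 0.1 µM. Mt2 ranged from -0.44 to -0.16 at 5 h, from -0.19 to 0.0901 at 24 h of 1 µM, from -0.13 to 0.15 at 24 h of 0.1 µM, from -0.0869 to 0.0055 between doses at 24 h, from -0.78 to -0.59 from 5 to 8 h and from 0.56 to 0.70 from 15 to 24 h. Mt3 ranged from -0.73 to -0.45 at 5 h, from 0.54 to 0.83 at 15 h and from 0.37 to 0.66 at 24 h of 0.1 µM. For the differences between members, this was chosen after seeing the data. Mt1 minus Mt2 at 24 h of 0.1 µM ranged from -0.0664 to 0.14, Mt1 minus Mt3 at 15 h of 0.1 µM from -0.16 to 0.0461 and Mt2 minus Mt3 at 8 h of 1 µM from -0.24 to 0.0770. Mt1 minus Mt3 at 15 h of 0.1 µM was 0.0183 without normalization and in the ratios, which must give the same value, and 0.0094 with median centring.

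The number of genes called moved most at 24 h of 0.1 µM (244, from 0 in the fit of only the groups compared to 2203 with median centring), 5 h of 1 µM (1118, from 130 to 2560) and 15 h of 0.1 µM (1803, from 446 to 2279). Highest counts came with array weights for 5 to 8 h (1915 to 4214), 8 to 15 h (3604 to 5424), 15 to 24 h at 1 µM (1276 to 3107) and 0.1 µM (1277 to 2765) and the dose by time change (1826 to 3538), with lowest counts of 1250, 2787, 713, 776 and 1080. All members were detected above background on all 24 arrays. Whether signal limited the changes found was not tested.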
